A study of Mus musculus with 46 samples.

Results

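The neuronal and synaptic miRNAs described here are 10 mature mouse miRNAs that are known to be enriched in neurons. They were taken from the array by name, as mmu-miR-128-3p, mmu-miR-137-3p, mmu-miR-138-5p, mmu-miR-129-5p, mmu-miR-132-3p, mmu-miR-212-3p, mmu-miR-218-5p, mmu-miR-153-3p, mmu-miR-7a-5p and mmu-miR-7b-5p (written without mmu from here on), and they make up 10 of the 1881 miRNAs on the array. All 10 were among the 815 miRNAs that were detected on at least 5 arrays and entered the tests.

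Heart, brain and liver of male C57BL6 mice of an Il1a knock-out strain were cut into 8 pieces each, and RNA was isolated after storage for 0, 1, 3, 6, 12, 24, 48 or 96 h, either at 4 °C or at room temperature (RT). The time of 12 h is that of the sample labels, whereas the methods give 14 h. RNA was hybridised to 1-colour Agilent arrays, where all pieces of a temperature, whatever the tissue, came from 1 animal by the methods, and 45 arrays were analysed, namely 16 of brain, 15 of heart and 14 of liver. Every mouse carried the same Il1a deletion, each time point was another piece of the same organ, and each combination of tissue and temperature filled a slide of its own, so that temperature, animal and slide cannot be told apart. All p-values therefore measure the spread between pieces of an organ and not between mice. RNA integrity is given as the RIN, which runs from 10 for intact to 1 for fully degraded RNA. It was 7.3 to 8.7 in brain at 4 °C and 3.3 to 8.7 in brain at RT, 8.1 to 8.8 and 2.2 to 9.0 in heart, and 3.4 to 9.1 and 2.3 to 7.1 in liver.

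Mature miRNAs are short RNAs that guide the Argonaute proteins to messenger RNAs and lower their translation or stability, and the bases near their 5′ end, the seed, do most of the target pairing. In neurons several of them act close to the synapse: they restrain proteins of dendritic spines, ion channels and vesicle release, and some are transcribed in response to neuronal activity. In a piece of tissue, fewer cells of a type and less RNA per cell cannot be told apart.

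The mature sequences are printed here because 2 pairs of the 10 miRNAs share a seed, and the pairs behaved differently across tissues. They were taken from RefSeq (GRCm38.p6), where 10 of 10 names matched, and run 5′ to 3′ with the seed, bases 2 to 8, in capitals. The first pair is transcribed from the activity-dependent locus of miR-132 and miR-212, the next 2 sequences are the miR-7 pair, and the other 6 each have a seed that none of the other 9 has.
mmu-miR-132-3p: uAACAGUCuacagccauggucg
mmu-miR-212-3p: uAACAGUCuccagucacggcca
mmu-miR-7a-5p: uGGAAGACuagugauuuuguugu
mmu-miR-7b-5p: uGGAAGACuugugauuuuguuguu
mmu-miR-128-3p: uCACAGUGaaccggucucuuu
mmu-miR-137-3p: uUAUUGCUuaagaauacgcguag
mmu-miR-138-5p: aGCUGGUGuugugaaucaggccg
mmu-miR-129-5p: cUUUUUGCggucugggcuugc
mmu-miR-218-5p: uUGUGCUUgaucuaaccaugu
mmu-miR-153-3p: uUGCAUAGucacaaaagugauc

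With positions counted from 1 at the 5′ end, miR-212-3p differed from miR-132-3p by A10C, C14U, U17C, U20C and G22A, and was identical at 17 of 22 positions. miR-7b-5p differed from miR-7a-5p by A10U alone over 23 positions and had 1 more base at its 3′ end. The G and C content of the mature sequences ranged from 33.3% for miR-7b-5p to 57.1% for miR-129-5p.

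In GRCm38.p6, miR-132-3p lies at chr11:75173723-75173744 and miR-212-3p at chr11:75173443-75173464, on the plus strand with 258 bases between them and with no annotated gene over either. miR-137-3p (chr3:118433901-118433923, plus strand) and miR-7b-5p (chr17:56243017-56243040, plus strand) also lay outside other annotated genes. miR-153-3p lies at chr12:117250860-117250881 on the plus strand, inside the interval of Ptprn2, a gene for a protein of secretory vesicles. The other 5 miRNAs have 2 loci each, which the array cannot tell apart. miR-128-3p comes from chr1:128202404-128202424 (plus strand, within R3hdm1) and chr9:112118644-112118664 (minus strand, within Arpp21). miR-218-5p comes from chr5:48223966-48223986 (plus strand, within Slit2) and chr11:35616840-35616860 (plus strand, within Slit3), genes of secreted axon guidance factors. miR-138-5p comes from chr8:94324312-94324334 (plus strand, within Nup93) and chr9:122682898-122682920 (plus strand). miR-129-5p comes from chr2:94241419-94241439 (minus strand, within the long noncoding RNA gene Mir670hg) and chr6:29022624-29022644 (plus strand), and miR-7a-5p from chr7:78888295-78888317 (plus strand) and chr13:58392841-58392863 (minus strand, within Hnrnpk).

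Levels are log2 values after variance stabilizing normalization (VSN), which puts the arrays on a common scale. Each miRNA was read by 2 probes of 15 spots, and levels are compared between arrays for the same miRNA. Differences between the miRNAs of a pair and sums over markers are only followed from array to array, and they give no relative amounts of different miRNAs. A miRNA counts as detected where the scanner software called it so, and an undetected miRNA still has a value near the background. The tissue labels held: the summed level of 4 other neuronal miRNAs, both arms of miR-124 and miR-9, was 13.40 to 14.96 in brain, 2.72 to 3.91 in heart and 0.50 to 5.10 in liver. The 4 heart muscle markers summed to 14.07 to 15.41 in heart and at most 8.10 in brain, and the 2 hepatocyte markers to 11.25 to 15.56 in liver 7.71 at most in heart and 6.22 at most in brain. Summed signals and counts of detected miRNAs varied between arrays, and the latter went up with storage at RT, from 491 at 0 h to 798 at 96 h in brain, from 390 to 683 in heart and from 310 to 726 in liver.

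The first question was whether the 10 miRNAs mark the brain on these arrays. Over the 33 arrays with RIN over 6, all 10 were higher in brain than in heart and 9 of 10 were higher in brain than in liver at an adjusted p below 0.05 (limma, Benjamini-Hochberg over 815 miRNAs). Of all 815 miRNAs, 47.1% were higher in brain than in heart and 58.0% were higher in brain than in liver by the same call. The median difference of the 10 was 6.73 against heart and 8.30 against liver on the log2 scale, beside medians of 0.44 and 1.12 over all miRNAs tested. With the miRNAs that no heart or liver array of RIN over 6 detected (5 and 6 of the 10) set to the bound that the weakest detected signal gives, the medians of the 10 were 6.17 and 6.90. Over all 45 arrays, degraded ones included, the lowest brain array exceeded the highest heart or liver array for 9 of the 10, where 15.5% of the 815 miRNAs were separated in this way. The exception was miR-212-3p. miR-153-3p, miR-7b-5p, miR-138-5p and miR-129-5p passed the filter of 5 arrays only with their brain arrays, so that their direction was largely fixed in advance.

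**Figure D1:**
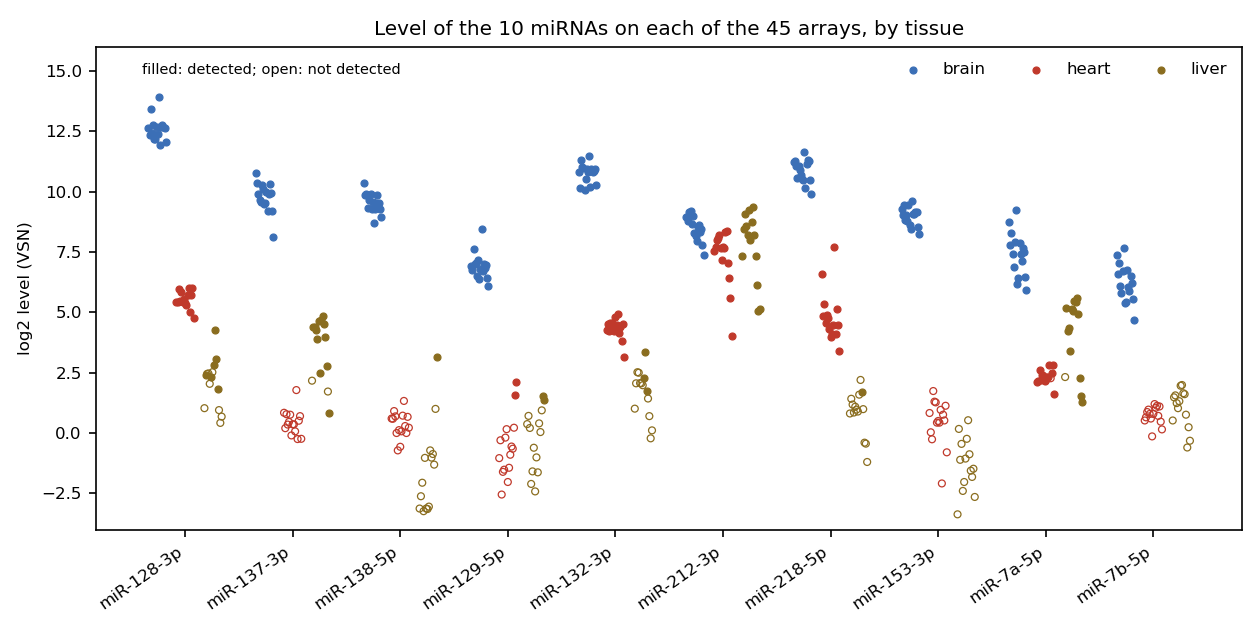
Log2 level (VSN) of each of the 10 miRNAs on each of the 45 arrays; points are arrays, blue for brain, red for heart and brown for liver, filled where the miRNA was detected and open where it was not. For 9 of the 10 the brain points lie above those of heart and liver, by a gap of 0.35 for miR-7a-5p to 6.51 for miR-153-3p, whereas the brain and other points of miR-212-3p overlap.

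A subset of 4 of the 10 miRNAs, miR-137-3p, miR-138-5p, miR-153-3p and miR-7b-5p, was detected on every brain array and on none of the 15 heart arrays. miR-137-3p, which acts in neuronal maturation and at the synapse, was lowest at 8.14, had a median of 9.92 and was highest at 10.79 over the 16 brain arrays. It was not detected in heart, and over arrays with RIN over 6 its level in brain was at least 356-fold higher (adjusted p 6.11e-28). miR-138-5p, which limits the size of dendritic spines, ranged from 8.71 to 10.37 in brain with a median of 9.55. Its brain level was at least 294-fold higher than in heart and at least 255-fold higher than in liver.

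miR-153-3p, a regulator of vesicle release, was detected on no heart or liver array and on all 16 brain arrays, where it ranged from 8.24 to 9.61 with a median of 9.05. The difference was at least 199-fold against heart and at least 175-fold against liver. miR-7b-5p was likewise seen in brain alone, at 4.70 to 7.68 with a median of 6.15, at least 31.8-fold above heart and 25.8-fold above liver. These bounds set the mean over the 14 brain arrays with RIN over 6 against the higher of the weakest detected signal and the measured value on each array of the other tissue. miR-153-3p and miR-7b-5p entered the tests through their brain arrays alone. miR-138-5p, detected on 1 liver array outside the brain, and miR-129-5p, detected on 2 heart and 2 liver arrays, also needed their brain arrays to reach 5. For these miRNAs the direction of the brain difference was therefore largely fixed in advance.

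miR-129-5p, which takes part in the homeostatic tuning of excitability, was detected on all 16 brain arrays, at 6.11 to 8.44 with a median of 6.89. On the arrays with RIN over 6 it was detected in neither heart nor liver, so that the brain level was at least 48.9-fold and 42.2-fold higher. miR-128-3p, an abundant neuronal miRNA that restrains excitability, ranged from 11.95 to 13.91 in brain with a median of 12.66. In heart it was detected on all 15 arrays at 4.77 to 6.03 with a median of 5.48, and the brain level was 7.09 ± 0.185 higher on the log2 scale (adjusted p 1.4e-27). In liver it was detected on 6 of 14 arrays, the values of all 14 ran from 0.42 to 4.27, and the difference was 10.49 ± 0.231 (adjusted p 3.24e-29), although 1 of the 6 liver arrays with RIN over 6 detected it.

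miR-218-5p, known from motor neurons and carried by both Slit genes, ranged from 9.92 to 11.64 in brain with a median of 10.99. In heart it was detected on all 15 arrays, from 3.39 through a median of 4.58 to 7.71, and the difference was 5.97 ± 0.293 (adjusted p 2.27e-19). Among the heart pieces the one of 6 h at RT with 7.71 and the one of 1 h at 4 °C with 6.59 stood above the others, none of which exceeded 5.35. On the first of these the heart muscle markers summed to 14.68, within the range of the other heart arrays, and the blood cell markers to 15.05, second only to 15.11 on the array of 6 h at 4 °C, where miR-218-5p was 5.35. In liver miR-218-5p was detected on 1 of 14 arrays, and the brain level was at least 645-fold higher over arrays with RIN over 6.

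The 2 miRNAs of the shared locus parted company outside the brain. miR-132-3p, induced by neuronal activity through the transcription factor CREB, ranged from 10.08 to 11.50 in brain with a median of 10.84, and was detected on all 15 heart arrays at 3.17 to 4.93 with a median of 4.42. The difference was 6.38 ± 0.168 (adjusted p 1.77e-27), and against liver, where none of the 6 arrays with RIN over 6 detected it, the brain level was at least 398-fold higher.

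miR-212-3p, the neighbour with the same seed, was detected on all 45 arrays. It ranged from 7.38 to 9.22 in brain (median 8.57), from 4.04 to 8.37 in heart (median 7.66) and from 5.04 to 9.35 in liver (median 8.20). The 3 ranges overlapped, and the highest value of all came from a liver piece. Over arrays with RIN over 6 it was 0.96 ± 0.203 higher in brain than in heart (adjusted p 8.8e-05) and differed from liver by 0.37 ± 0.253 (adjusted p 0.185). Scaling to the 75th percentile of all miRNAs and quantile normalization took the difference from heart to 0.28 and 0.29 (adjusted p 0.179 and 0.161), and turned that from liver to -0.57 and -1.27 (adjusted p 0.0298 and 9.36e-06), whereas without scaling the difference from liver was 1.01 (adjusted p 0.000398) and over the 4 °C arrays alone 0.56 (adjusted p 0.0469). The percentile and quantile scalings also lowered the median difference from liver of all 815 miRNAs, from 1.12 to 0.14 and 0.07, and miR-212-3p lay below that median with them, with VSN and without scaling (1.18). Among RT arrays alone the difference from heart was 0.74 (adjusted p 0.0593) and among 4 °C arrays alone it was 1.12 (adjusted p 0.000159).

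Both probes of miR-212-3p gave this picture. The first had median log2 signals, before scaling, of 6.75 in brain, 5.36 in heart and 5.61 in liver, and the second of 8.12, 7.12 and 7.35. The log2 ratio of the second to the first was 1.36 ± 0.12 (SD, n = 16) in brain, 1.73 ± 0.07 (n = 15) in heart and 1.67 ± 0.12 (n = 14) in liver. The highest brain ratio, 1.54, was below the lowest heart ratio, 1.60, whereas the liver ratios, from 1.44 to 1.83, overlapped with those of both. How much of the miR-212-3p signal outside the brain came from other RNAs was not tested. For miR-132-3p the ratio was -0.54 ± 0.05 in brain and -0.64 ± 0.09 in heart.

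The opposite arm of the hairpin, miR-212-5p, was seen in brain alone. It was detected on 16 of 16 brain, 0 of 15 heart and 0 of 14 liver arrays, at 4.09 to 6.66 in brain with a median of 5.27. Its difference was 4.47 against heart (adjusted p 1.3e-22) and 4.40 against liver (adjusted p 2.06e-19), taken against background signals there. The opposite arm of miR-132, miR-132-5p, was detected on 0 of 45 arrays.

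**Figure D2:**
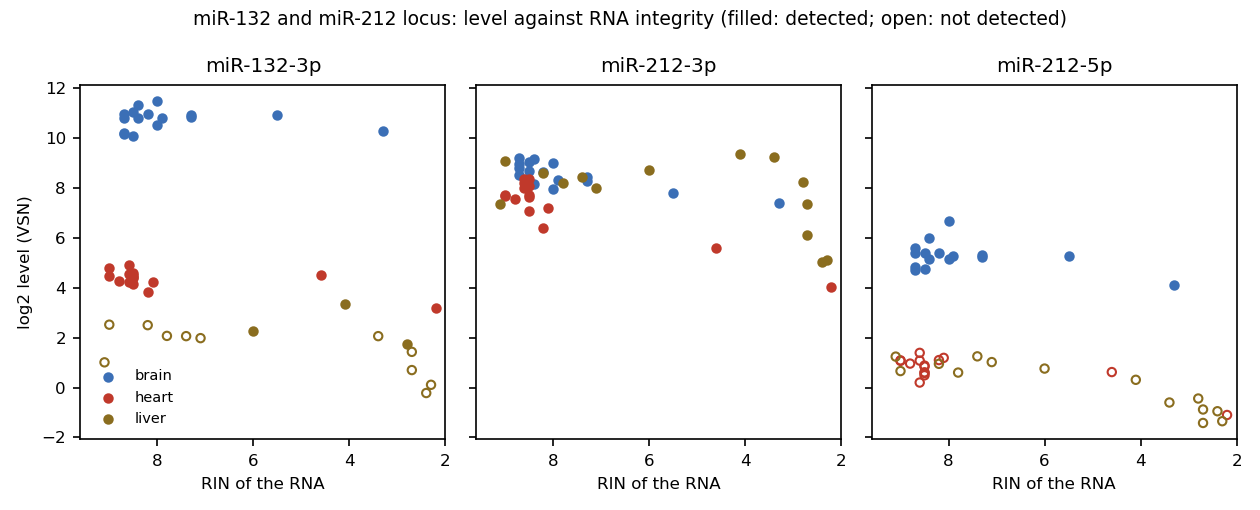
Log2 level (VSN) of miR-132-3p, miR-212-3p and miR-212-5p against the RIN of the RNA, with intact RNA at the left; each point is an array, coloured by tissue and filled where the miRNA was detected. miR-132-3p and miR-212-5p separate brain from the other tissues over the whole range of RIN, whereas miR-212-3p stands at 7.94 to 9.22 in intact brain and at 7.34 to 9.08 in intact liver.

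The miR-7 pair, known from neuroendocrine cells and bound by the circular RNA Cdr1as, differed in where it was seen. miR-7a-5p ranged from 5.94 to 9.23 in brain with a median of 7.47. In heart it was detected on 11 of 15 arrays, and the values of all 15 ran from 1.60 to 2.83. In liver it was detected on 13 of 14 arrays, and the values of all 14 ran from 1.30 to 5.59 with a median of 4.66. It was 5.26 ± 0.284 higher in brain than in heart (adjusted p 3.51e-18) and 3.49 ± 0.354 higher than in liver (adjusted p 9.52e-11). On the liver array with 5.59, that of 6 h at RT, miR-7b-5p was not detected and stood at 1.61. miR-137-3p was also detected on most liver arrays, 12 of 14, and the values of all 14 ran from 0.85 to 4.85 with a median of 4.13. It was 6.34 ± 0.298 lower there than in brain (limma, adjusted p 7.66e-20).

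Of the 15 opposite arms of the same hairpins on the array, 11 were detected on at least 5 arrays. All 11 were higher in brain than in heart and in liver, with median differences of 3.57 and 3.44. Of all 815 miRNAs, 47.1% and 58.0% were called so. Where an arm was not detected outside the brain, its fitted difference rests on background signals there. This holds for miR-128-1-5p, miR-137-5p, miR-138-2-3p, miR-212-5p, miR-153-5p and miR-7a-2-3p. These arms passed the filter through brain arrays alone, so that their direction was largely fixed in advance. miR-129-2-3p, detected on 16 brain, 1 heart and 2 liver arrays, also needed its brain arrays to pass the filter. It had the largest difference from heart, 8.31 (limma, adjusted p 9.53e-33), which rests largely on background signals there. miR-153-5p differed by 7.30 and miR-129-1-3p by 6.61, and miR-138-2-3p, which was detected on 16 brain arrays and nowhere else, differed by 5.61. miR-7a-1-3p was detected on 16 brain, 15 heart and 4 liver arrays and differed from heart by 2.33. miR-129b-5p, which comes from a separate hairpin on the other strand of the chromosome 2 locus of miR-129-5p, was detected on 2 brain, 7 heart and 6 liver arrays and had a brain to heart difference of -0.95 (adjusted p 0.0113). The remaining arms were miR-128-1-5p, miR-137-5p, miR-138-1-3p, miR-7a-2-3p and miR-7b-3p, with differences from heart of 2.25 to 3.57.

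The next question was how the levels in brain changed during storage. At RT all 10 slopes over hours were negative with VSN (without scaling 7 of 10 were positive, yet all 10 were below the median of all miRNAs with both), and 3 of the 10 miRNAs fell at an adjusted p below 0.05, miR-137-3p, miR-129-5p and miR-212-3p. Of all 815 miRNAs, 31.5% fell with time at RT, so that the share of the 10 was near the background. The fitted change over 96 h had a median of -0.99 for the 10 and of -0.11 for all miRNAs tested.

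**Figure D3:**
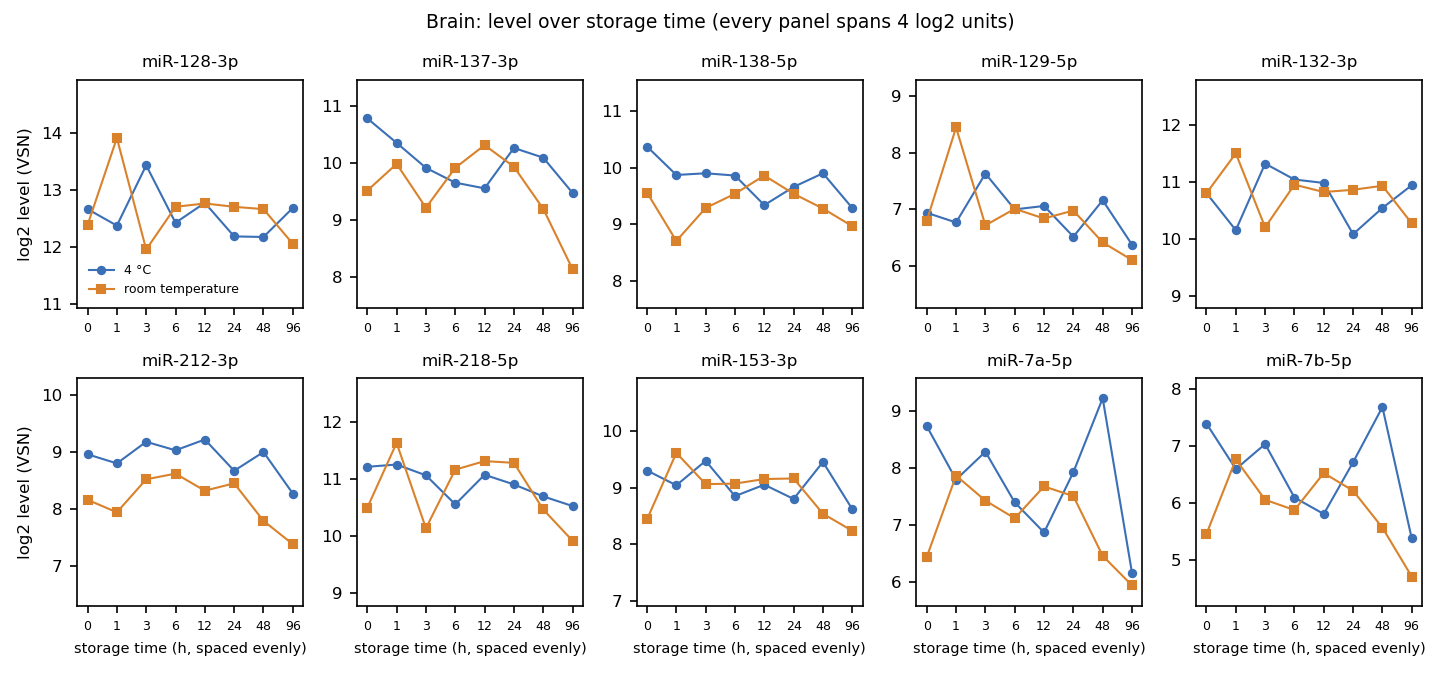
Log2 level (VSN) of each of the 10 miRNAs in brain over storage time, drawn at even spacing; blue circles are the 8 pieces kept at 4 °C, orange squares the 8 pieces kept at RT, and each panel spans 4 log2 units. The lowest value of the RT series falls at 96 h for 7 of the 10, and the paths of miR-7a-5p and miR-7b-5p run in parallel.

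miR-137-3p was 9.52, 9.99, 9.22, 9.92, 10.32, 9.94, 9.20 and 8.14 in the RT pieces of 0, 1, 3, 6, 12, 24, 48 and 96 h. The fitted change over 96 h was -1.59 ± 0.47 (adjusted p 0.00879). The values up to 24 h showed no steady fall, and the piece of 96 h was the lowest of all 16 brain pieces.

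miR-212-3p was 8.16, 7.94, 8.52, 8.62, 8.32, 8.45, 7.79 and 7.38 at the same times, with a fitted change of -0.96 ± 0.31 (adjusted p 0.015). miR-129-5p was 6.80, 8.44, 6.72, 7.01, 6.84, 6.98, 6.42 and 6.11, with a fitted change of -1.23 ± 0.51 (adjusted p 0.0443). Again the pieces of 48 and 96 h were the lowest, and for miR-129-5p the piece of 1 h was the highest. Without the piece of 96 h none of the 10 was called, and the call of miR-129-5p was lost on leaving out any 1 of 10 of the 16 brain arrays and with normexp (adjusted p 0.137).

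The other 7 had fitted changes over 96 h of -0.34 (miR-138-5p) to -1.42 (miR-7a-5p) and did not pass, with adjusted p of 0.0544 for miR-153-3p, 0.0595 for miR-218-5p, 0.0707 for miR-7b-5p and 0.114 for miR-7a-5p. miR-132-3p, the partner of miR-212-3p, stood at 10.80 at 0 h, 10.93 at 48 h and 10.27 at 96 h. miR-128-3p stood at 12.38, 12.66 and 12.05 at those times. The RT piece of 96 h (RIN 3.3) was below that of 24 h (RIN 7.3) for all 10, from 9.54 to 8.97 for miR-138-5p and from 9.94 to 8.14 for miR-137-3p, which describes 2 pieces.

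At 4 °C, 0 of the 10 changed with time (limma, adjusted p below 0.05), as against 0.123% of all 815 miRNAs. At an unadjusted p below 0.05 it was 0 of the 10, beside 133 of the 815. The fitted changes over 96 h ranged from -1.21 ± 0.78 for miR-7a-5p to 0.02 ± 0.47 for miR-132-3p, with a median of -0.59 for the 10 and -0.09 for all. The slopes at RT and 4 °C were also compared directly. The difference was called for 0 of the 10 and for 12.3% of all miRNAs. At an unadjusted p below 0.05 the difference passed for 0 of the 10 and for 234 of the 815. For miR-137-3p it was -0.98 over 96 h with a 95% interval of -2.38 to 0.42, and for miR-7b-5p -0.52 with an interval of -2.51 to 1.47. The narrowest interval among the 10 was -1.25 to 0.65, for miR-212-3p.

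Much of the spread in brain did not go with time. Averaged over the 10, the deviation from the mean of the slide at 4 °C was 0.39 for the pieces of 0 and 3 h, 0.26 for the piece of 48 h and -0.56 for that of 96 h. In the RT series the same mean was highest for the piece of 1 h (0.63) and lowest for that of 96 h (-0.83). All 10 were above their slide mean in the 4 °C piece of 0 h and in the RT piece of 24 h, and all 10 were below it in the RT piece of 96 h.

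The RT piece of 1 h held the highest value of the 16 for miR-128-3p (13.91), miR-129-5p (8.44), miR-132-3p (11.50), miR-218-5p (11.64) and miR-153-3p (9.61), and the lowest for miR-138-5p (8.71). On the same array the 3 oligodendrocyte markers, both miR-219a arms and miR-338-3p, summed to 13.15, the highest of 10.75 to 13.15 over the 16 pieces. The other neuronal miRNAs summed to 14.96, the vessel markers to 11.07, the blood cell markers to 11.23, the heart muscle markers to 8.10 and the hepatocyte markers to 6.22, and each was the highest among the brain pieces. The part of these differences in the values of the 10 was not tested.

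The miR-7 pair had the widest spread among the 10 in brain. Within slides the SD was 0.83 for miR-7a-5p and 0.70 for miR-7b-5p, 0.34 to 0.56 for the other 8, and 0.51 as the median over all miRNAs detected on every brain array. At 4 °C miR-7a-5p was 8.74, 7.80, 8.29, 7.40, 6.87, 7.93, 9.23 and 6.16 at 0, 1, 3, 6, 12, 24, 48 and 96 h, so that the highest and the lowest value at 4 °C came from the last 2 pieces. miR-7b-5p was 7.39, 6.59, 7.03, 6.09, 5.80, 6.71, 7.68 and 5.37 at the same times and was highest and lowest in the same pieces. The difference between their log2 values had an SD of 0.19 over the 16 brain arrays. The RNA of the 2 last pieces had RIN 8.0 and 7.3. Since their sequences differ by A10U and by the last base alone, how much of each signal came from the other was not tested, and in liver miR-7b-5p was not detected on any array while miR-7a-5p was.

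For miR-132-3p and miR-212-3p the difference of log2 values in brain had an SD of 0.64, more than the SD of either (0.41 and 0.52). These SDs span both slides, so that a shift between slides is part of them. The difference ran from 1.35 to 2.67 at 4 °C and from 1.68 to 3.56 at RT. Within slides the SD was 0.41 for miR-132-3p and 0.36 for miR-212-3p. How closely the 2 moved together from piece to piece was not tested.

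The miRNAs whose pattern was most like the mean of the 10, by Pearson's r of the deviations from the slide mean over the 16 brain arrays and among 422 other miRNAs detected on all of them, were miR-154-3p (0.968), miR-138-1-3p (0.962), miR-323-3p (0.962), miR-431-5p (0.961) and miR-409-5p (0.957). The values share arrays and scaling, and they are given as a description.

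RNA integrity was then used in place of time. In brain, 3 of the 10 were lower where the RIN was lower, miR-137-3p, miR-212-3p and miR-153-3p. Of all 815 miRNAs, 32.6% were called in this direction, so that again the share was near the background. At an unadjusted p below 0.05 (limma) 6 of the 10 passed, beside 590 of the 815 in either direction. The slope per unit of RIN was 0.30 ± 0.0846 for miR-137-3p (adjusted p 0.0064), 0.21 ± 0.0559 for miR-212-3p (adjusted p 0.00426) and 0.16 ± 0.0691 for miR-153-3p (adjusted p 0.0469). All 10 slopes were positive with VSN, with a median of 0.20 beside 0.03 for all miRNAs, but without scaling 7 of the 10 were negative and 0 were called. The median of all 815 slopes itself moved to -0.21 without scaling, and relative to it all 10 were higher with either, as 8 and 9 of 10 were with quantile normalization and normexp. Of the 11 opposite arms 6 were lower where the RIN was lower, among them miR-137-5p with a slope of 0.36 (adjusted p 0.000526) and miR-153-5p with 0.40 (adjusted p 0.00303).

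The call of miR-153-3p was lost on leaving out any 1 of 12 of the 16 arrays. All 3 calls in brain rested on a single degraded piece, whereas the slopes stayed positive whichever array was left out. They ran from 0.171 to 0.356 for miR-137-3p, 0.19 to 0.232 for miR-212-3p and 0.141 to 0.202 for miR-153-3p. Without the RT piece of 96 h (RIN 3.3) 0 of the 10 were called, without the RT piece of 0 h 7 were and without the 4 °C piece of 48 h 5 were. Over arrays with RIN over 6 alone 0 were called as well. The slopes were 0.03 ± 0.26 for miR-137-3p, 0.006 ± 0.219 for miR-153-3p and 0.27 ± 0.18 for miR-212-3p. Among the 8 RT pieces alone miR-137-3p and miR-212-3p were called, with slopes of 0.29 (adjusted p 0.0352) and 0.19 (adjusted p 0.0485), and among the 8 pieces at 4 °C none was, with slopes of 0.45 and 0.44 (adjusted p 0.4 and 0.27) over RIN of 7.3 to 8.7.

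**Figure D4:**
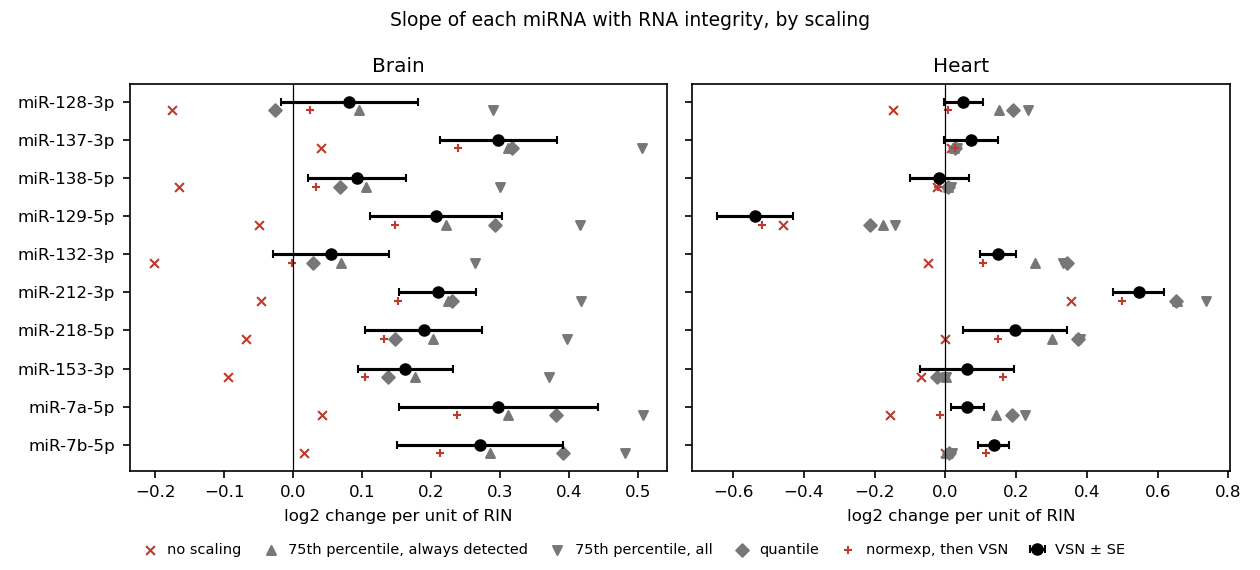
Slope of each of the 10 miRNAs per unit of RIN in brain (left) and heart (right); black circles with bars are VSN estimates ± SE, and the other symbols are estimates with other scalings. In brain the crosses without scaling lie left of 0 for 7 of the 10, while in heart miR-212-3p stays right of 0 and miR-129-5p left of 0 with every scaling shown.

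In heart, 3 of the 10 fell with falling RIN (miR-212-3p, miR-132-3p and miR-7b-5p) and 1 rose (miR-129-5p). Of all 815 miRNAs, 27.7% fell with falling RIN and 40.0% rose. miR-212-3p was 7.71, 7.66, 8.35, 8.37, 7.06, 6.41, 5.58 and 4.04 in the RT pieces of 0 to 96 h, whose RIN was 2.2 to 9.0, and 7.18 to 8.19 in the 7 pieces at 4 °C. The RT pieces from 12 h on lay below every piece at 4 °C. The slope was 0.55 ± 0.072 per unit of RIN (adjusted p 1.29e-05), and for a loss of 5 RIN units the level fell by 2.73 on the log2 scale. It was called with every scaling tried but not over the arrays with RIN over 6 alone (0.99 ± 0.573, adjusted p 0.319).

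miR-132-3p went from 4.81 at 0 h to 4.51 at 48 h and 3.17 at 96 h at RT, with a slope of 0.15 ± 0.0517 (adjusted p 0.0196). It was not called without the piece of 96 h, and the slope was -0.0493 without scaling. miR-7b-5p was detected on 0 of 15 heart arrays, so that its slope of 0.14 ± 0.0437 (adjusted p 0.0128) describes signals near the background.

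miR-129-5p moved the other way. In heart at RT it was -2.03, -1.44, -0.90, -0.56, -0.65, 0.22, 1.59 and 2.13 from 0 to 96 h, and it was detected in the pieces of 48 and 96 h alone. The slope was -0.54 ± 0.107 per unit of RIN (limma, adjusted p 0.000464), but it rests mostly on undetected signals near the background. It was -0.177 with the 75th percentile of always detected miRNAs, -0.142 with that of all miRNAs and -0.213 with quantile normalization. In brain, where the same miRNA was detected on all arrays, the slope was 0.21 ± 0.0957 (adjusted p 0.0636). The difference between the 2 slopes was 0.75 ± 0.208 (limma, p 0.00092, adjusted p 0.259). It was not called after adjustment, and its heart side rests on the same signals near the background. In brain, too, the log2 ratio of the second to the first probe of miR-129-5p varied, from -1.20 to -0.66, and in the heart pieces of 48 and 96 h it averaged -1.63.

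Between brain and heart the RIN slopes differed for 0 of the 10 (limma; 1 at an unadjusted p below 0.05, miR-129-5p), as against 0% of all miRNAs. For miR-212-3p the difference was -0.34 with a 95% interval of -0.73 to 0.06, and for miR-128-3p it was 0.03 with an interval of -0.32 to 0.38. Between brain and liver the slopes differed for 0 of the 10 (2 at an unadjusted p below 0.05, miR-129-5p and miR-138-5p) and for 1.23% of all miRNAs. Both miR-129-5p and miR-138-5p were undetected on most liver arrays.

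In liver, 0 of the 10 were called with RIN (limma, adjusted p below 0.05), beside 31.7% of all 815 miRNAs in either direction. At an unadjusted p below 0.05 it was 0 of the 10, beside 357 of the 815. The 4 °C piece of 48 h had a RIN of 3.4 in the sample labels, where the text of the study gives a higher one, but values like those of intact liver, such as 9.25 for miR-212-3p, 5.14 for miR-7a-5p and 4.65 for miR-137-3p. Without that array 3 of the 10 were called, miR-129-5p, miR-138-5p and miR-7b-5p. Among the 8 RT pieces alone 2 were called, and both rose with falling RIN, miR-129-5p with a slope of -0.70 ± 0.155 (adjusted p 0.00579) and miR-138-5p with -0.86 ± 0.259 (adjusted p 0.0235). In liver miR-129-5p was detected on 2 arrays, miR-138-5p on 1 and miR-7b-5p on none, so that these slopes mostly describe signals near the background.

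**Figure D5:**
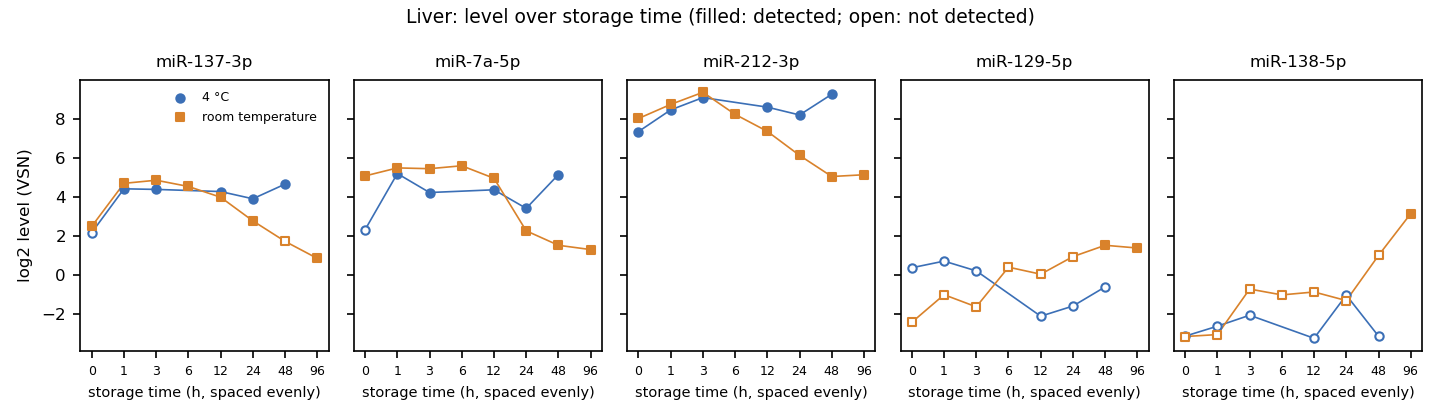
Log2 level (VSN) of 5 of the miRNAs in liver over storage time, drawn at even spacing; blue circles are the 6 pieces kept at 4 °C and orange squares the 8 pieces kept at RT, filled where the miRNA was detected. At RT miR-137-3p, miR-7a-5p and miR-212-3p stood at 4.53, 5.59 and 8.22 at 6 h and at 0.85, 1.30 and 5.13 at 96 h. miR-129-5p and miR-138-5p stood at 0.40 and -1.02 at 6 h and at 1.38 and 3.14 at 96 h.

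Over storage time at RT in liver, miR-7a-5p was 5.07, 5.48, 5.44, 5.59, 4.95, 2.26, 1.52 and 1.30 at 0 to 96 h. miR-137-3p was 2.49, 4.69, 4.85, 4.53, 3.98, 2.77, 1.72 and 0.85, and miR-212-3p was 8.01, 8.73, 9.35, 8.22, 7.35, 6.12, 5.04 and 5.13. The 3 miRNAs were at their highest at 3 or 6 h and at their lowest at 48 or 96 h. In the same pieces the hepatocyte markers miR-122-5p and miR-192-5p summed to 14.83, 15.56, 15.56, 15.34, 14.87, 13.20, 11.58 and 11.25, and the vessel markers went from 11.04 at 3 h to 5.39 at 96 h. The part of this shared decline in the 3 miRNAs was not tested.

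miR-138-5p in liver was detected on 1 of 14 arrays, that of 96 h at RT, at 3.14, after 1.00 at 48 h and no more than -0.72 in earlier RT pieces. miR-129-5p was detected at 48 and 96 h, at 1.52 and 1.38. These are the 2 miRNAs of the 10 with the highest G and C content, 57.1% for miR-129-5p and 56.5% for miR-138-5p, and miR-212-3p, with 54.5%, went down in the same pieces. Any part of G and C content in these changes was not tested.

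The RT liver piece of 3 h (RIN 4.1) held the highest liver values of miR-128-3p (4.27), miR-132-3p (3.36), miR-137-3p (4.85), miR-212-3p (9.35), miR-218-5p (2.20) and miR-153-3p (0.53). The other neuronal miRNAs summed to 5.10 there, the highest of the 14 liver arrays, of which no other exceeded 3.45. The part of this in the values of the 10 was not tested.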

How the data were processed

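Mouse heart, liver and brain RNA was measured on 1-colour Agilent miRNA arrays. The authors deposited scanner intensity values made with Agilent Feature Extraction 10.10.1.1, with flags for detection, and a table of VSN-normalized log2 values. Detected miRNAs took the total gene signal and others the sum of their probe signals. These were normalized by VSN (own implementation, Python 3.11.15, at most 0.0104 log2 units from the deposited table). One heart array (4 °C, 0 h) was set aside for low quality, as the study did. Of the spots, 0 were saturated; the number of arrays limits the precision.

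Tissues were compared over arrays with RIN over 6 with slide as a random block, and slopes over RIN or hours were fitted within tissues with slide as intercept, with limma 3.58.1 in R 4.3.3 (lmFit, eBayes, Benjamini-Hochberg over 815 miRNAs). Fits were tested on simulated data. All 10 miRNAs, opposite arms and miR-129b arms detected on at least 5 arrays and the 5 miRNAs most like the mean of the 10 in brain were named. The 10 miRNAs and all lists were chosen with earlier results of these data known. Other scalings, filters, adjustments and left-out arrays were tried. The normexp alternative (offset 50) used median spot signals and median local background.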

Additional observations from a re-analysis of the deposited data

Results flagged for a closer look

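Among 60 sets of values, 1 for each of the 10 miRNAs in each tissue and temperature, 8 held an array whose gap to its nearest neighbour was large for the range of the set. For a single set chance gives about 1 in 20. The sets of a tissue and temperature share their arrays, so that the 8 cannot be compared with this rate. In brain at RT, the piece of 1 h was highest for miR-128-3p (13.91, the others 11.95 to 12.76) and for miR-129-5p (8.44, the others 6.11 to 7.01). In heart at RT, the piece of 6 h was highest for miR-218-5p (7.71, the others 3.39 to 5.16) and for miR-137-3p (1.78, the others -0.25 to 0.70), and miR-137-3p was detected on none of the heart arrays. In liver at 4 °C, the piece of 0 h was lowest for miR-128-3p (1.03, the others 2.04 to 2.47), miR-137-3p (2.17, the others 3.90 to 4.65) and miR-132-3p (1.01, the others 2.06 to 2.52), none of which was detected on that array. In that liver piece the hepatocyte markers summed to 12.75, against 14.53 to 15.44 in the other 5 pieces at 4 °C. In heart at 4 °C, the piece of 96 h was lowest for miR-7b-5p (-0.14, the others 0.52 to 0.97), which was not detected in heart.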

How the results depend on the processing

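Between brain and heart, 9 or 10 of the 10 miRNAs were called with all 15 alternatives, and between brain and liver 9 or 10 with all 14. The one that changed was miR-212-3p, which was lower in brain than in liver with the 75th percentile of all miRNAs (-0.571) and quantile normalization (-1.27), and higher in brain without scaling (1.01) and with 4 °C pieces alone (0.561). The counts of RIN and time slopes depended on the scaling, and the cause was not tested. The share of all miRNAs called with each alternative is not given, so that these counts have no background beside them. The median RIN slope of all 815 miRNAs in brain moved too. It was 0.03 with VSN, 0.11 with scaling to the 75th percentile of all miRNAs and -0.21 without scaling. In brain, 3 of 10 RIN slopes were called, but 0 without scaling, 6 and 10 with scaling to the 75th percentile of always detected or of all miRNAs, 7 with quantile normalization, 0 with Bonferroni adjustment, 5 without the slide block, 0 with 4 °C pieces alone, 0 with RIN over 6 alone and 5 with a common slope for all tissues; with the deposited VSN table miR-153-3p had an adjusted p of 0.0509. In heart the 4 calls became 5 and 6 with scaling to the 75th percentile of always detected or of all miRNAs, 6 with quantile normalization, 3 without the slide block, 2 with normexp, 1 with Bonferroni adjustment, 0 with 4 °C pieces alone and 1 with RIN over 6 alone; without scaling 4 were called, but miR-128-3p and miR-7a-5p, both with negative slopes, in place of miR-132-3p and miR-7b-5p. In liver the 0 calls became 1 with quantile normalization, 1 without the slide block, 2 with RT pieces alone and 5 with a common slope. The 3 falling time slopes at RT became 1 rising slope without scaling (miR-138-5p, 1.05 over 96 h), 4 with the 75th percentile of always detected miRNAs (miR-212-3p not among them), 2 with normexp, 10 with the 75th percentile of all miRNAs, 7 with quantile normalization, and 0 with Bonferroni adjustment, with log2 hours or without the pieces of 96 h. For the difference between the temperatures, 0 became 1 without scaling and 3 with the 75th percentile of all miRNAs. For the RIN slopes of brain against heart, 0 became 1, 3 and 2 with both 75th percentile scalings and quantile normalization, and for brain against liver 1, 3 and 1.

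Without scaling, the brain RIN slopes of miR-153-3p and miR-212-3p turned to -0.0948 and -0.0474, the heart slopes of miR-132-3p and miR-7b-5p to -0.0493 and -0.00174, and the brain slopes over hours at RT of miR-129-5p and miR-212-3p to 0.00167 and 0.00442.

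Leaving out 1 array at a time gave 10 to 10 calls against heart, 9 to 9 against liver, 0 to 7 RIN slopes in brain, 2 to 5 in heart (2 without the RT piece of 96 h) and 0 to 3 in liver. It gave 0 to 6 time slopes at RT (0 without the RT piece of 96 h, 6 without the RT piece of 0 h or the 4 °C piece of 48 h), 0 to 0 at 4 °C, 0 to 0 for the difference between temperatures and between brain and heart, and 0 to 2 between brain and liver (2 without the 4 °C liver piece of 48 h). Every sample title carries the same replicate number, so that these numbers pair no samples and no analysis was paired by them. The tissues of a temperature share an animal, and storage time as a block, with slide as a random block, gave 10 calls against heart and 9 against liver. MiRNAs that were not detected on any array of a tissue have only a bound there, set by the signal over background.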
